A study of Mus musculus with 82 samples.

Results

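Genes that build and regulate the elongating RNA polymerase II were followed in nascent RNA of mouse embryonic stem (ES) cells. The set held 8 of the 24743 genes of the RefSeq annotation, chosen by name. They were Polr2a, Cdk9, Ccnt1, Hexim1, Supt5, Supt6, Aff4 and Ell2. Reads on the sense strand of each gene were split into a promoter window, the first 500 bp, and a body, the span without 500 bp at either end.

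After initiation, polymerase II often halts a short distance downstream of the start, held by the factors DSIF and NELF. P-TEFb, the kinase CDK9 with its partner cyclin T1, releases it by phosphorylating these factors and the tail of the polymerase. HEXIM proteins bound to a small nuclear RNA keep part of P-TEFb inactive, and the super elongation complex brings active P-TEFb to genes, including genes that are induced quickly in ES cells.

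Cells of the V6.5 line, given as the cell type of every sample, were grown in serum with leukaemia inhibitory factor on gelatin, and no sample carried another genotype or treatment. Engaged polymerases were allowed to add a propargyl nucleotide in a nuclear run-on, and the 3′ end of each nascent RNA was then joined to a DNA adaptor by click chemistry. AGTuC is the bulk assay, run with enough of the detergent sarkosyl to open the nuclei, inAGTuC is its version with less sarkosyl for intact nuclei, and scGRO–seq tags the RNA of single nuclei in 96-well plates. The 82 samples gave 2 AGTuC libraries, 4 inAGTuC libraries, 53 scGRO–seq libraries of 10 batches and 23 scGRO–seq libraries of other batches, which entered no comparison.

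Of 5088 barcodes in the 53 scGRO–seq libraries, 2512 in 35 libraries were kept as cells, with at least 1000 unique molecular identifiers (UMIs) and 750 genes each. Well barcodes are reused between plates, so that the kept cells held 254 distinct barcodes, 226 of them in more than 1 library, and a cell was a barcode within a library. The cells of a batch were summed, which gave 223119 to 4928371 reads in a batch, against 623265 to 1462003 in an inAGTuC library and 2231837 and 4755740 in the AGTuC libraries. The labels do not say that batches or libraries came from separate cultures, and p-values measure only the spread between them.

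The label of the cells was set against marker genes. Levels are in RPKM, here the sense reads of the gene body per kb of body and per 1000000 reads of the sample. ES cell markers had a median level over their summed length of 1.63 RPKM in scGRO–seq (range over batches 1.03 to 4.93), 1.81 in inAGTuC (1.38 to 3.20) and 5.29 in AGTuC (5.13 to 5.46), whereas 6 fibroblast genes had 0.124, 0.0954 and 0.0251 in the same order of assays, 4 of them with no AGTuC read. Pou5f1, Nanog and Sox2 were read in every assay, and of the 8 ES cell markers Dppa5a had 0 body reads in scGRO–seq and in inAGTuC. Esrrb held 1980 of the 3545 scGRO–seq, 1019 of the 1680 inAGTuC and 4056 of the 7018 AGTuC reads of the ES cell list. Some genes of the other lists had like counts, not scaled for length. In scGRO–seq Col1a1 had 113 and Pax6 125 body reads against 95 of Sox2. In inAGTuC Gata4 had 88 against 57 of Sox2, and in AGTuC 69 against 485. Over 7 genes of differentiated lineages the levels were 0.225, 0.381 and 0.415, and Sox1 held 239 of the 360 AGTuC reads of that list. The 291 olfactory receptor genes, which ES cells do not use, had 0.0398, 0.0453 and 0.00373, against 1.73, 1.45 and 1.89 for the elongation genes (1.50, 1.44 and 1.89 without a window of Supt5 that is described next). A further scGRO–seq list with the library name Exp261_c16 shared 99.7% of its molecules with the inAGTuC library of that name, and only the inAGTuC list entered comparisons.

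One place in Supt5 has to be described before any level. Supt5 encodes SPT5, the large subunit of DSIF, which holds the paused polymerase and after phosphorylation travels with it as an elongation factor. Its span is chr7:28314894-28338719 on the minus strand (GRCm38). Of its 3956 scGRO–seq reads, 3482 (88.0%) lay in 1 window of 50 bp, 20200 to 20249 bp after the start, at chr7:28318470-28318519 in intron 20 of a transcript with 30 exons. The next highest of the 477 windows along the gene held 8 reads. The sequence around the window is shown because it carries these reads. It is the sense strand of chr7:28318465-28318584, with the 16 bases of the commonest read in capitals.
Supt5 site: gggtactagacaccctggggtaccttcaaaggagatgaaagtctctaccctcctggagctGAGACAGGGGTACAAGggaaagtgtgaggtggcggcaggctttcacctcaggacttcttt

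The reads in this window were short. Their lengths ran from 16 to 22 bp, 99.6% were 16 to 18 bp long, and the median mapping quality was 34.5. The other scGRO–seq reads of Supt5 had a median length of 46 bp, and the median lengths of the other genes were 42.5 to 49 bp. As many as 1696 of the reads (48.7%) ended at the single position 28318509, and 3470 lay on 3 positions. The 16 bases occurred once in the genome on either strand, at this place. Read on the opposite strand, the beginning of the 16 bases also matches the beginning of an adaptor sequence that the paper trimmed from its reads. The paper required a minimum overlap for this trimming, which is longer than the matching stretch. Whether the reads in this window came from Supt5 RNA was not tested.

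The window was filled in some batches and empty in others. Batch Exp260b held 3087 of the reads, in 497 of its 529 cells (93.95%), and all 6 of its libraries had them, with 206 to 1001 reads each. Exp236 held 338 reads in 179 of 812 cells, of which 332 lay in 4 of its 10 libraries and 178 in Exp236_c06 alone (160 without that library). Exp260 held 27, Exp263 14, Exp264a 11 and Exp246 5. No read was found in Exp156, Exp160, Exp208 and Exp211, where 0 counts allow up to 2.24% to 3.26% of cells, a limit that covers counting error only. The inAGTuC libraries held 3 such reads in all and the AGTuC libraries 1. The tests of Supt5 are therefore given with and without the window, and its other values, in the text and in the plots, without it where that is said. This choice was made after the reads were seen. The part of short reads in other results was measured by dropping reads under 20 bp, which made up 26.8% of the scGRO–seq, 8.75% of the inAGTuC and 0.128% of the AGTuC reads. No call of the 8 genes was lost or gained without them.

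**Figure D1:**
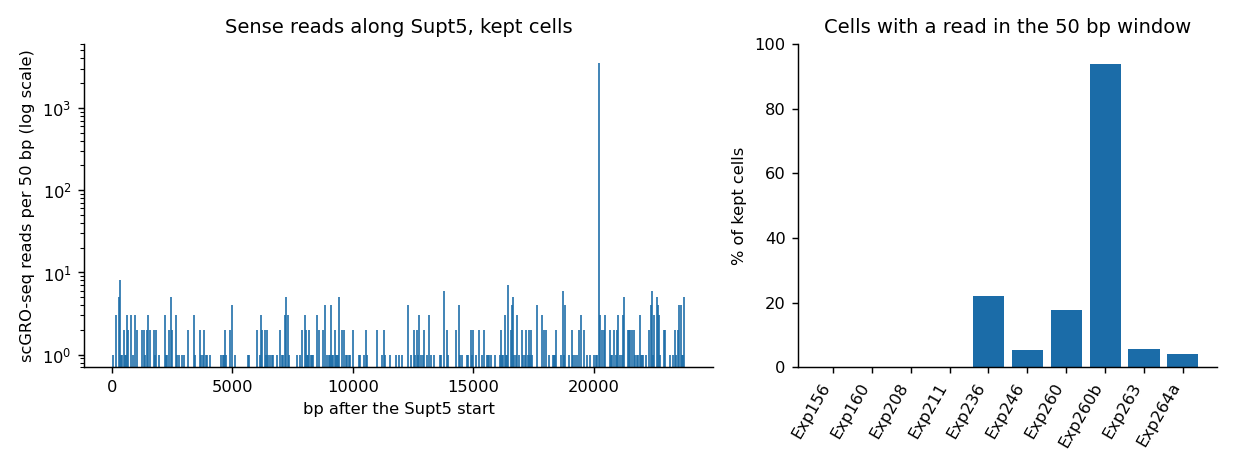
Left, scGRO–seq reads of kept cells in windows of 50 bp along the sense strand of Supt5, against the distance from its start (log scale). Right, percent of the kept cells of each batch with a read in the highest window. A single window holds 3482 of 3956 reads, and the share of cells runs from 0% in 4 batches to 93.95% in Exp260b.

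The level of transcription was taken from the body, in RPKM as above. In bulk libraries such a level cannot tell fewer transcribing cells from less nascent RNA per cell. Differences were tested with limma voom on all 14827 genes with enough reads, in 1 fit of the 10 batches, 4 inAGTuC and 2 AGTuC libraries. The comparisons of scGRO–seq and of AGTuC with inAGTuC share the inAGTuC libraries. Both AGTuC libraries bear the experiment name Exp125c, and 2 of the 4 inAGTuC libraries bear Exp208. A difference of AGTuC from another assay is thus also a difference between experiments, and the spread of AGTuC is that within 1 experiment.

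Polr2a (chr11:69733997-69758633, minus strand) encodes RPB1, the catalytic subunit of polymerase II. Its body level was 0.839, 1.29, 2.68 and 2.82 in the inAGTuC libraries, 4.55 and 5.65 in the AGTuC libraries, and 0.886 to 5.12 with a median of 2.75 in the scGRO–seq batches. Both AGTuC libraries lay above every inAGTuC library, and the batches spanned most of the range of both bulk assays. Polr2a was 2.96-fold higher in AGTuC than in inAGTuC, with a log2 difference of 1.56 (SE 0.51, limma adjusted p = 0.0200).

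Cdk9 (chr2:32705782-32712784, minus strand) encodes the kinase of P-TEFb and Ccnt1 (chr15:98538690-98567736, minus strand) its cyclin. The Cdk9 body level was 1.03, 1.03, 1.87 and 2.23 in inAGTuC, 5.08 and 5.22 in AGTuC, and 0.457 to 5.97 with a median of 1.45 in scGRO–seq. The AGTuC values were again above all inAGTuC values, with a log2 difference of 1.84 (SE 0.54, limma adjusted p = 0.00963), but the highest batch, Exp156, rested on 8 reads. Ccnt1 was measured at 0.610, 1.54, 2.17 and 2.25 in inAGTuC and at 2.14 and 2.34 in AGTuC. These ranges overlapped, and the log2 difference of 0.62 (SE 0.49, limma adjusted p = 0.362) did not pass the test. The batches gave Ccnt1 a level of 0.587 to 2.72, with a median of 1.37.

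Hexim1 (chr11:103116325-103119725, plus strand, 1 exon) encodes the inhibitor of P-TEFb. Its body level was 1.14, 1.34, 1.72 and 2.53 in inAGTuC against 6.74 and 8.21 in AGTuC, the highest level of the 8 genes in AGTuC. The log2 difference was 2.06 (SE 0.58, limma adjusted p = 0.00763), a 4.17-fold higher level. In scGRO–seq the gene had 29 body reads in all, and 4 batches had none, where 0 counts allow a level of up to 1.87 to 5.60. The batches with reads gave 0.516 to 3.48.

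Supt5 was at 3.13 ± 0.295 (SD, n = 2) RPKM in AGTuC and at 1.60 ± 0.738 (SD, n = 4) in inAGTuC, and without the window at 3.12 ± 0.281 and 1.57 ± 0.745. In scGRO–seq it was at 8.44 ± 17.1 (SD, n = 10), with 56.9 in Exp260b, and at 2.04 ± 1.05 without the window, when the batches ran from 0.998 to 4.52. Its log2 difference between scGRO–seq and inAGTuC was 1.40 (SE 0.58, limma adjusted p = 0.968, unadjusted 0.0224) and 0.27 (SE 0.36, limma adjusted p = 0.992) without the window. Between AGTuC and inAGTuC it was 1.07 (SE 0.81, limma adjusted p = 0.330) and 1.10 (SE 0.48, limma adjusted p = 0.0847). Both AGTuC libraries (2.92 and 3.32 without the window) lay above every inAGTuC library (highest 2.51). No Supt5 level difference passed the test either way.

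Supt6 (chr11:78206749-78245703, minus strand) encodes SPT6, a histone chaperone that travels with the polymerase. Its body level was 1.79 ± 0.675 (SD, n = 10) in scGRO–seq, 1.56 ± 0.709 (SD, n = 4) in inAGTuC and 1.48 ± 0.0790 (SD, n = 2) in AGTuC. The assays overlapped throughout. Aff4 (chr11:53350767-53421830, plus strand) encodes the scaffold of the super elongation complex, and Ell2 (chr13:75707484-75772361, plus strand) an elongation factor within it. Aff4 was at 1.23 ± 0.396, 1.50 ± 0.670 and 1.16 ± 0.0182 in the same order of assays and numbers of samples. Ell2 had the lowest mean of the 8 genes in every assay, at 0.859 ± 0.492, 0.850 ± 0.5682 and 0.619 ± 0.0131. In scGRO–seq, however, Hexim1 (mean 0.908) lay above Ell2 in only 4 of 10 batches. The log2 differences of the 3 genes between AGTuC and inAGTuC were 0.04 (Supt6), -0.24 (Aff4) and -0.27 (Ell2), with approximate 95% intervals from the SE of -0.92 to 1.01, -1.16 to 0.68 and -1.34 to 0.80.

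**Figure D2:**
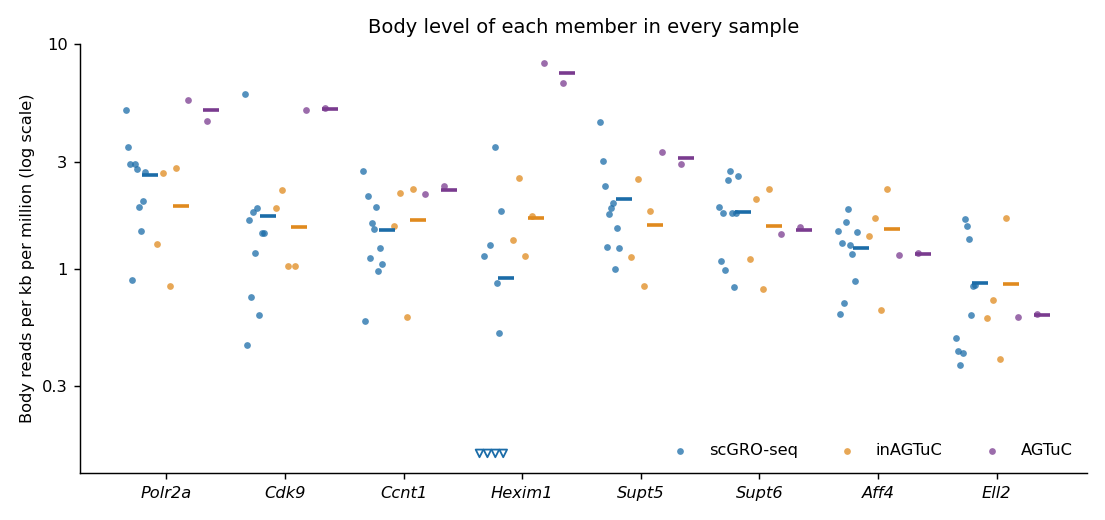
Body level in RPKM (log scale) of each gene in the 10 scGRO–seq batches, 4 inAGTuC and 2 AGTuC libraries, with dashes at the means; Supt5 is drawn without the 50 bp window, and open triangles are the 4 batches with no body read of Hexim1. Polr2a, Cdk9, Hexim1 and Supt5 are higher in both AGTuC libraries than in any inAGTuC library. Ell2 has the lowest mean in each assay, though Hexim1 lies above it in only 4 of the 10 batches.

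In all, 3 of the 8 genes were higher and none lower in AGTuC than in inAGTuC, against 12.9% of all genes higher and 16.1% lower, a contrast of shares that was not tested. Both AGTuC libraries lay above every inAGTuC library for these 3 and for Supt5, which is 4 genes against 29.9% of all genes. The log2 difference of all genes had a median of 0.30, which became -0.05 with median-of-ratios scaling, and the 3 calls were kept. With 2 AGTuC libraries the calls were not firm. With limma-trend in place of voom Polr2a alone was called (limma adjusted p = 0.0789 for Cdk9 and 0.103 for Hexim1), and with the experiment as a random block Cdk9 alone (0.0673 for Polr2a and 0.0585 for Hexim1). Without the AGTuC library Exp125c_c01 none of the 3 passed, without Exp125c_c02 only Hexim1 did, and without the inAGTuC library Exp234_c11 Polr2a was lost (limma adjusted p = 0.0810). In these fits a lone AGTuC library is assumed to vary like the other groups. Between scGRO–seq and inAGTuC none of the 8 genes was called, against 0% of all genes, with 733 genes (4.94%) at an unadjusted p below 0.05, among the members Supt5 with its window. Batch Exp208 held both assays, and the log2 difference there, with 0.5 reads added and no test, lay between -0.81 and 0.51 for 7 genes. Hexim1 had 0 body reads in scGRO–seq there, beside 2 in the promoter window, which allows a body level of up to 2.47 RPKM, against 1.34 and 2.53 RPKM in the inAGTuC libraries.

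The order of the body levels, per kb and with Supt5 without its window, differed between the assays. In scGRO–seq it was Polr2a, Supt5, Supt6, Cdk9, Ccnt1, Aff4, Hexim1 and Ell2. Polr2a lay above Supt5 in 8 of 10 batches, by 0.578 ± 0.539 (SD of the differences), and the differences of the other neighbours were smaller than their SD. With its window Supt5 came first there, at the 8.44 given above. In inAGTuC the means of Polr2a, Hexim1, Ccnt1, Supt5, Supt6, Cdk9 and Aff4 lay between 1.91 and 1.50, each pair of neighbours within the SD of its differences, and Ell2 lay below Aff4 in 4 of 4 libraries. In AGTuC the order was Hexim1, Cdk9, Polr2a, Supt5, Ccnt1, Supt6, Aff4 and Ell2. Cdk9 and Polr2a changed places between the AGTuC libraries, and the other neighbours kept their order in both.

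The promoter window bears on pausing, since polymerases held near the start add to it and not to the body. It was expressed as the promoter share, the percent of promoter and body reads that fell in the first 500 bp, and tested as the log2 ratio of promoter to body reads in a limma voom fit of 11239 genes with an interaction of region and assay. AGTuC was set against inAGTuC and against scGRO–seq, so that both comparisons share the AGTuC libraries.

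The promoter shares of the 2 AGTuC libraries were high for most of the genes. Ell2 had 23.01% and 27.9% in AGTuC, 0%, 2.63%, 4.00% and 5.00% in inAGTuC, and 0% to 2.27% with a median of 0% in scGRO–seq. Supt6 had 17.3% and 21.4%, then 0%, 3.03%, 3.10% and 4.26%, then 0% to 3.19% with a median of 0%. Cdk9 had 38.7% and 39.2%, then 10.0% in 1 inAGTuC library and 0% in 3, then 0% to 25.0% with a median of 0%. The groups did not overlap for these 3 genes, although the 0% of Cdk9 rested on 7 to 11 body reads. A limit of 3 counts over these body reads gives 27.3% to 42.9%, which is rough and high for so few reads. The log2 ratio of these 3 genes was higher in AGTuC than in inAGTuC by 3.69 (SE 1.04, limma adjusted p = 0.00405) for Ell2, 2.79 (SE 0.94, limma adjusted p = 0.0137) for Supt6 and 3.19 (SE 0.99, limma adjusted p = 0.00818) for Cdk9.

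Against scGRO–seq the ratio was higher in AGTuC by 3.92 for Ell2 (limma adjusted p = 0.000602), 3.69 for Supt6 (0.000438), 2.86 for Aff4 (0.00804), 2.27 for Cdk9 (0.0259) and 2.25 for Polr2a (0.0215). Supt5 differed by 4.06 (limma adjusted p = 0.000904) with its window, which adds to its body, and by 2.94 (0.00373) without it. Its promoter share without the window was 2.44% ± 2.44 (SD, n = 10) in scGRO–seq, 6.68% ± 4.31 (SD, n = 4) in inAGTuC and 23.2% ± 2.08 (SD, n = 2) in AGTuC. With the window in, the scGRO–seq share was 1.53% ± 1.69. The log2 ratio of Supt5 in AGTuC minus that in inAGTuC was 2.02 (limma adjusted p = 0.121) with the window and 1.99 (0.0740) without.

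Polr2a, Aff4 and Ccnt1 stood closer together in AGTuC and inAGTuC. Polr2a had a promoter share of 23.8% and 33.3% in AGTuC and of 5.83%, 11.9%, 14.7% and 24% in inAGTuC, where the lowest AGTuC value fell just below the highest inAGTuC value. Aff4 had 10.1% and 17.9% against 0%, 1.28%, 5.83% and 14.1%. Ccnt1 had 12.99% and 13.3% against 4.17%, 5.66%, 6.90% and 21.9%, and the library with the 21.9%, Exp234_c11, was also the highest for Aff4. The log2 ratio differed by 1.36 (SE 0.93, limma adjusted p = 0.210) for Polr2a, 2.13 (SE 1.01, limma adjusted p = 0.0735) for Aff4 and 0.67 (SE 0.97, limma adjusted p = 0.566) for Ccnt1. None of these passed, and Aff4 passed when Exp234_c11 was left out (limma adjusted p = 0.0124).

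Hexim1 had the highest mean promoter share of the 8 genes in each assay, although its inAGTuC and scGRO–seq values overlapped those of other genes. Its span of 3401 bp makes the promoter window a large part of promoter and body (17.2% by length, against 0.709% to 7.69% for the others). Its promoter share was 46.9% and 49.4% in AGTuC and 0%, 20%, 25% and 37.5% in inAGTuC on 2 to 8 reads. It was 41.6% ± 40.4 (SD) in the 8 scGRO–seq batches with a promoter or body read, on 1 to 17 reads. This mean gives each batch the same weight. Exp208 and Exp211 had 100% on 2 promoter reads each and no body read. Exp236, the batch with most reads of the gene, had 11.8%, on 2 promoter and 15 body reads. Its log2 ratio differed by 1.34 (SE 1.06, limma adjusted p = 0.278) from inAGTuC and by 0.37 (SE 0.94, limma adjusted p = 0.744) from scGRO–seq.

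**Figure D3:**
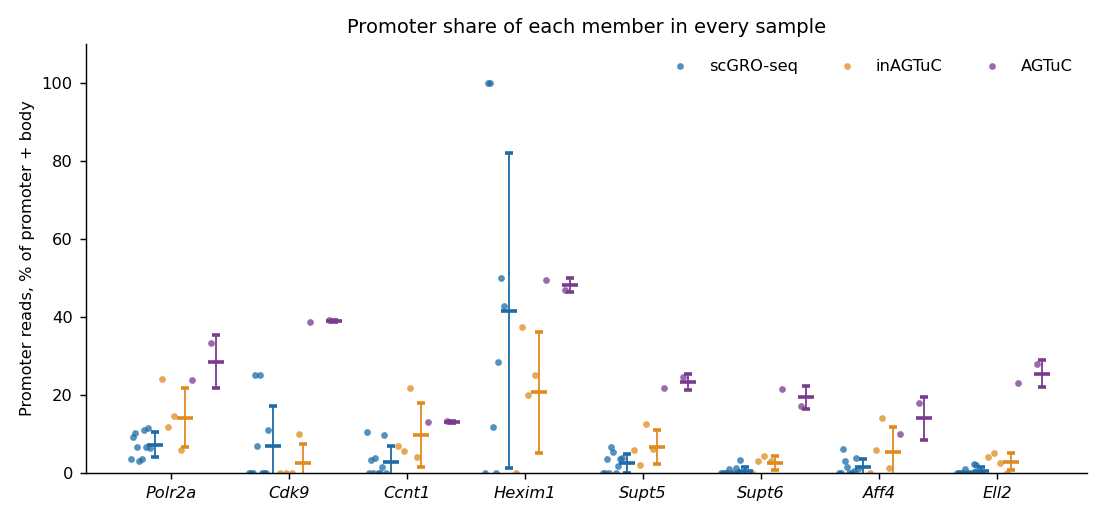
Promoter reads as percent of promoter and body reads of each gene in every scGRO–seq batch, inAGTuC and AGTuC library with a read, with the mean and SD of each assay; Supt5 is drawn without the 50 bp window. Ell2, Supt6, Cdk9, Supt5 and Hexim1 lie apart in AGTuC from inAGTuC, and the Hexim1 shares of the batches run from 0% to 100%.

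Counted together, the ratio was higher in AGTuC than in inAGTuC for 3 of the 8 genes, against 47.2% of all genes, and than in scGRO–seq for 6, against 50.9%. The median log2 difference of all genes was 2.25 and 2.10. Every AGTuC library was above every inAGTuC library for Cdk9, Supt5, Supt6, Ell2 and Hexim1, which is 5 genes against 70.3% of all genes, and above every batch for all but Hexim1, which is 7 against 58.8%. A sample with 0 promoter reads counts as 0% here. Of the 10 batches, 4 to 7 had no promoter read of Cdk9, Ccnt1, Aff4, Supt5, Supt6 or Ell2, and the limit that 0 counts allow lay above the lowest AGTuC share in 4 batches for Cdk9 and Ccnt1, 3 for Ell2 and 2 for Aff4 and Supt6. In inAGTuC it did so in 1 library each for Cdk9 and Hexim1. This limit is 3 counts over the body reads, which is rough and high where these are few. No test sets these counts apart from those of all genes. Leaving out the AGTuC library Exp125c_c01 left 1 gene, Ell2, called against inAGTuC, and leaving out Exp125c_c02 left none. Against scGRO–seq, leaving out Exp125c_c01 lost Polr2a (limma adjusted p = 0.0875) and Cdk9 (0.137), and leaving out Exp125c_c02 lost Polr2a (0.190), Cdk9 (0.136) and Aff4 (0.128), and Supt5 (with its window), Supt6 and Ell2 were called in both cases. Ccnt1 (limma adjusted p = 0.0652) passed against scGRO–seq without the inAGTuC library Exp261_c16 (0.0490), without Exp234_c11 (0.0436) and without Exp156 (0.0416).

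Around the starts, the AGTuC reads formed narrow peaks. The highest window of 50 bp on the sense strand lay 0 to 49 bp after the start in Polr2a (156 reads) and Supt5 (77), 50 to 99 bp after it in Cdk9 (67), Supt6 (75) and Ccnt1 (25), and 100 to 149 bp after it in Ell2 (39), with reads from both libraries in each. In Aff4 it lay 50 to 99 bp after the start (22), with all reads from Exp125c_c02 and none from the other library. In scGRO–seq no window near a start of these genes held more than 10 reads. Of the Polr2a reads in AGTuC, 349 lay in the 500 bp after the start and 3 in the 500 bp before it. Hexim1 was different, with its highest window at -100 to -51 bp from the RefSeq start (80 reads), and 144 reads before against 111 after the start. Cdk9 had a second sense peak at -250 to -201 bp from its start (27 reads), with 69 reads before against 139 after. The promoter window does not count these upstream reads, and with 500 bp on either side the log2 ratio of Hexim1 differed from inAGTuC by 2.24 (limma adjusted p = 0.0717), that of Cdk9 by 2.45 (0.0395) and that of Supt6 by 2.04 (0.0710).

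The promoters of Polr2a, Hexim1 and Cdk9 are printed because the position of their reads can be read against them. Each is the sense strand of GRCm38, at chr11:69758604-69758753 for Polr2a (120 bases before the start to base 29 after it), chr11:103116205-103116354 for Hexim1 (the same distances) and chr2:32712935-32713084 for Cdk9, upstream of its start. Capitals mark the letters TATAAA of Polr2a, at -33 to -28 bases from the start, and the upstream peak windows of Hexim1 and Cdk9.
Polr2a: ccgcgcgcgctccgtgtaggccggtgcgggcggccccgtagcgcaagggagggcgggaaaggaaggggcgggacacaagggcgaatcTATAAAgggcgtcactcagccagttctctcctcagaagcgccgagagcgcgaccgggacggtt
Hexim1: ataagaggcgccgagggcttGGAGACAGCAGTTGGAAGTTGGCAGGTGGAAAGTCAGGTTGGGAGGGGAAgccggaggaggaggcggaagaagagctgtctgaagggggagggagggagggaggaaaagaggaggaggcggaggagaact
Cdk9: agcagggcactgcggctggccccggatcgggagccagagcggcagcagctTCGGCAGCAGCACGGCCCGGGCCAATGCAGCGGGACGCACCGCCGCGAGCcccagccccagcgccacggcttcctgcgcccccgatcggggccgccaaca

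Over the RefSeq promoter sequences, which run from 250 bases before to 50 bases after a start, TATAAA on either strand stood in 1 of the 8 genes, Polr2a, and in 13.6% of 32851 promoters. GGGCGG stood in 6 of the 8 (35.7% of all) and CCAAT in Cdk9, Ell2 and Hexim1 (37.4% of all). The share of G and C was 59.3% (Supt6) to 79.0% (Aff4), against a median of 52.7%. These are matches of letters and no measurement of a factor.

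The antisense strand upstream of the starts was read strongly at Ccnt1 and Aff4. Ccnt1 had 287 antisense AGTuC reads in the 500 bp before its start, 202 of them at -300 to -251 bp, against 68 sense reads in the promoter window. The antisense gene 9330020H09Rik overlaps the start of Ccnt1. Aff4 had 200 antisense reads there, with 77 of them at -150 to -101 bp, against 105 sense reads. Polr2a had its antisense peak inside the gene, 250 to 299 bp after the start (46 reads). In Cdk9, Supt5, Supt6, Ell2 and Hexim1 4 to 32 antisense reads lay in the 500 bp before the start.

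**Figure D4:**
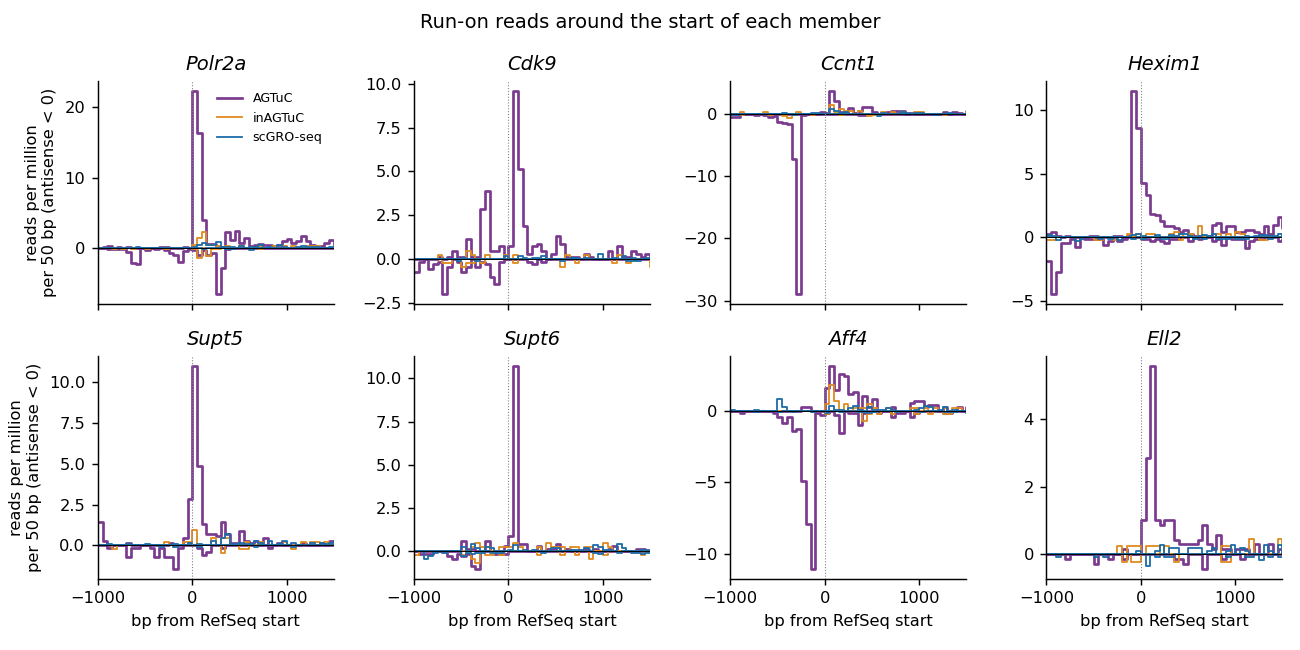
Reads per 50 bp and 1000000 reads (RPM) in windows from 1000 bp before to 1500 bp after the RefSeq start of each gene, sense above and antisense below 0, for pooled AGTuC, inAGTuC and scGRO–seq reads. AGTuC peaks lie within 150 bp after the start except at Hexim1, whose peak is upstream, and the antisense peaks of Ccnt1 and Aff4 exceed their sense peaks.

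Within the bodies, the share of reads in exons was set side by side for the assays, a comparison that was not tested. Exons make up 24.3% of the Polr2a body, and 27.8% of its AGTuC reads (95% Wilson interval 24.8% to 30.96%), 40.6% of its inAGTuC reads (33.99% to 47.6%) and 52.01% of its scGRO–seq reads (48.2% to 55.8%) lay in them. Over the samples the Polr2a share was 27.7% and 27.9% in AGTuC, 24.1% to 46.4% in inAGTuC and 25.0% to 74.1% in scGRO–seq. The Supt6 exons make up 14.6% of the body and held 18.05%, 27.7% and 44.1% in the same order of assays, with 29.6% to 50.0% over the batches. For Aff4 the values were 20.7%, 29.8% and 29.4%, against 13.3% by length. Ell2, with 4.44% by length, had 3.96%, 7.45% and 9.94%. Cdk9 stayed near its length share of 44.5%, with 47.5%, 47.2% and 43.6%. For Supt5 without the window the shares were 17.7%, 28.5% and 26.5%, against 13.1% by length, and with it the scGRO–seq share was 2.94%. Over all genes the median ratio of exon share to length share was 1.20 in AGTuC, 1.72 in inAGTuC and 1.68 in scGRO–seq. The intervals cover counting error only.

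The body was also divided at its midpoint, again without a test. The part before the midpoint held 46.5% of the AGTuC body reads of Polr2a, 37.6% of its inAGTuC reads and 31.9% of its scGRO–seq reads (95% Wilson interval 28.5% to 35.6%), with 14.3% to 46.4% over the batches. Ell2 had 61.9%, 48.2% and 48.7%. Cdk9 had 49.8%, 47.2% and 58.4%, the last on 101 reads, of which 53 came from batch Exp236, and 43.8% without that batch. Ccnt1 had 47.3%, 46.9% and 40.6%, and Aff4 47.3%, 44.5% and 46.8%. The short Hexim1 had 80.2%, 64.7% and 69.0%, the last on 29 reads. Supt6 stayed at 43.6%, 43.1% and 42.8%. Supt5 without the window had 42.6%, 41.1% and 44.2%, and 4.90% in scGRO–seq with it. Apart from Cdk9 and Supt5 without the window, the share of each gene was highest in AGTuC, for Ccnt1, Supt6 and Aff4 by little. These orders moved with single samples. Leaving out 1 inAGTuC library, the inAGTuC share ran from 43.2% to 53.9% for Ccnt1 and from 38.3% to 50.4% for Supt6. For Hexim1 it ran from 53.8% to 81.8%. The upper ends lay above the AGTuC shares of these genes.

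Reads on the antisense strand of the same spans were counted beside the sense reads. In AGTuC there were 1.60 (Cdk9) to 23.97 (Hexim1) antisense reads per 100 sense reads, in inAGTuC 21.7 (Hexim1) to 38.9 (Polr2a) and in scGRO–seq 27.5 (Supt6) to 52.4 (Hexim1), with Supt5 at 29.3 without its window and 3.51 with it. The medians of all genes were 7.53, 47.8 and 46.2. These pooled ratios moved with single samples. Without the inAGTuC library Exp234_c11, which had 47 antisense to 35 sense reads of Polr2a, the inAGTuC ratios ran from 15.2 (Ell2) to 30 (Cdk9), with Polr2a at 22.1, and without Exp261_c16 from 33.3 (Hexim1) to 60.7 (Polr2a). Without batch Exp236 the scGRO–seq ratios ran from 13.6 (Supt6) to 36 (Hexim1), with Supt5 taken without its window. The lower ends of the bulk assays moved as well. Hexim1 was at 13.3 in inAGTuC without Exp208_c14, and the 6 antisense reads of Cdk9 in AGTuC all came from Exp125c_c02. With all samples the 8 genes carried more antisense reads in inAGTuC and in scGRO–seq than in AGTuC, except Hexim1 in inAGTuC, as did the median of all genes. The part of such reads in the sense counts was not tested.

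The single-cell part of scGRO–seq gives the share of cells in which a gene was read. No other cell type that lacks these genes is present to set a background. The antisense and olfactory receptor values above are read ratios and levels and not shares of cells. They set no background for the shares given here. Aff4 was read in 815 of 2512 cells (32.4%, 95% Wilson interval 30.6% to 34.3%), Supt6 in 645 (25.7%), Ell2 in 617 (24.6%) and Polr2a in 604 (24.04%). The order of these 3 rested on batch Exp236, which held 812 of the cells. Without it Supt6 was read in 19.2% of 1700 cells, Polr2a in 18.5% and Ell2 in 15.9%, and over the 10 batches the medians were 18.4%, 22.2% and 15.5%. Aff4 was at 26.5% without Exp236, below its interval, which covers counting error only. Over the batches Aff4 ran from 15.2% in Exp160 to 44.8% in Exp236, with a median of 27.2%. Ccnt1 was read in 416 (16.6%), Cdk9 in 107 (4.26%) and Hexim1 in 41 (1.63%). Supt5 was read in 1013 (40.3%, and 25.9% without Exp260b) and in 398 (15.8%) without the window. These shares are not scaled for the length of a gene or the depth of a batch. Polr2a ran from 12.6% of cells in Exp211 to 35.6% in Exp236, Ell2 from 6.80% in Exp156 to 42.6% in Exp236, and Supt5 from 13.5% to 94.3% with its window and from 10.1% to 21.7% without.

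Reads permuted among the cells of a library, with the reads of each cell and each gene held fixed, give the number of cells expected if a gene's reads were dealt out by depth alone. The expectation was computed exactly, and the observed minus expected cells were tested over the 10 batches by an exact two-sided sign-flip test, adjusted over 12278 genes. The smallest p this test can give is 0.00195, and 480 genes had to reach it for an adjusted p below 0.05. The question was whether the polymerases of a gene were grouped in some cells, with fewer cells holding a read and more holding 2 or more than depth gives.

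The cells with at least 1 read were close to expectation. Polr2a was read in 604 cells where 605.5 were expected, Aff4 in 815 where 819 were expected, Ell2 in 617 against 620 and Ccnt1 in 416 against 414. Supt6 had the lowest p, with 645 cells against 657, below expectation in 7 of 10 batches (exact p = 0.0234, adjusted 0.511). Cdk9 had 107 against 111 (exact p = 0.125, adjusted 0.736), and Hexim1, with 42 reads, was under the minimum of 50 and had no test. Supt5 had 1013 against 1039 (exact p = 0.0508, adjusted 0.636), and 398 against 410 without the window (exact p = 0.0469, adjusted 0.633). None of the 7 genes tested was called, against 0% of all genes, with 926 genes at an unadjusted p below 0.05.

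The numbers of cells with 2 or more reads could likewise not be separated from expectation by this test. Aff4 had 231 such cells against 214 expected, above expectation in 7 of 10 batches (exact p = 0.0352, adjusted 0.630). Cdk9 had 8 against 3.78, above in 4 batches and below in 5 (exact p = 0.125, adjusted 0.858). Polr2a had 112 against 108, Ccnt1 64 against 61.3, Supt6 155 against 152, Ell2 155 against 153 and Hexim1 1 against 0.437. Supt5 had 605 against 629 with its window and 62 against 53.7 without it (exact p = 0.0508, adjusted 0.721), so that the direction turned on the window. No gene of the 7 was called, against 0% of all genes, with 824 genes at an unadjusted p below 0.05 and a median ratio of observed to expected of 1.07 over all genes. Pairs of reads of 1 cell at least 50 bp apart gave 407 against 444 for Aff4, 152 against 164 for Polr2a and 328 against 300.0 for Supt6, and none passed (lowest adjusted p = 0.502, Supt5 with its window). Without the window Supt5 had 72 such pairs against 75.5 expected (exact p = 0.379, adjusted 0.956).

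**Figure D5:**
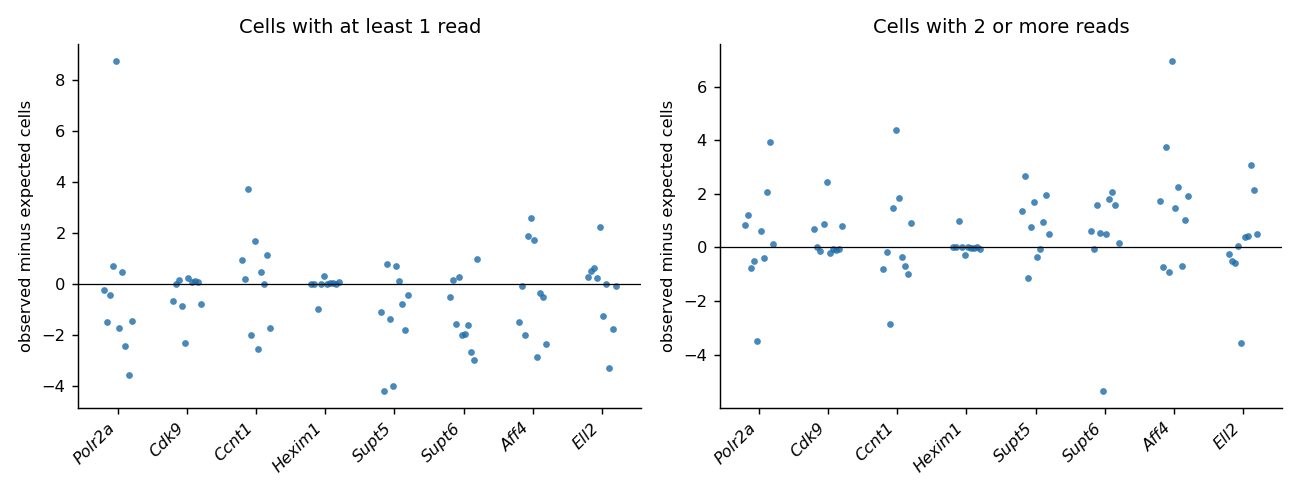
Observed minus expected number of cells with at least 1 read (left) and with 2 or more reads (right) of each gene, 1 point per scGRO–seq batch; Supt5 is drawn without the 50 bp window. For each gene with 50 reads the points lie on both sides of 0.

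Cells that held reads of 2 of the 8 genes at once were counted over the 28 pairs. There were 3769 such combinations against 3855 expected, a ratio of 0.978, which lay between 0.773 (Exp246) and 1.06 (Exp208) in the batches, and was 0.986 without the Supt5 window. A total of 11 pairs lay above 1 and 17 below, or 10 and 18 without the window. Polr2a with Ccnt1 had 147 cells against 131, the highest ratio among the 22 pairs with at least 20 expected cells, and Cdk9 with Ccnt1, the 2 parts of P-TEFb, had 21 against 27.2, the lowest. No test was made of these sums.

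Other genes of the pathway were read from lists of polymerase II subunits, P-TEFb partners, the super elongation complex, NELF and DSIF, the PAF complex, further elongation factors, and Integrator with termination factors, 63 genes in all, of which 60 were tested. In the body, 9 of the 60 were higher and 2 lower in AGTuC than in inAGTuC, against 12.9% and 16.1% of all genes. Brd2, which binds acetylated chromatin, was higher by 2.81 on the log2 scale (limma adjusted p = 6.84e-05) and Mepce, which caps the RNA that holds HEXIM, by 3.14 (0.00012). Aff3 and Mllt3, both parts of the super elongation complex, were lower by 2.97 and 2.49 in size (log2 differences of -2.97 and -2.49, limma adjusted p = 0.000135 and 0.000155). Of the polymerase II subunits 3 of 10 were higher, with Polr2m at 1.95 and Polr2f at 1.58, and none of the 5 NELF and DSIF genes or the 6 PAF genes passed. The median of the 60 was 0.78, against 0.30 for all genes, and none of the 60 was called between scGRO–seq and inAGTuC. The promoter to body ratio was higher in AGTuC for 27 of 60 against inAGTuC and for 35 of 60 against scGRO–seq, with none lower, against 47.2% and 50.9% of all genes higher. By list the count ran from 3 of 11 (further elongation factors) to 5 of 6 (PAF complex) against inAGTuC, and from 1 of 7 (super elongation complex) to 6 of 6 (PAF complex) against scGRO–seq. The P-TEFb partners had 2 of 7 in both, and the median of the 60 was 2.18 and 2.23, against 2.25 and 2.10 for all genes.

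The genes whose level over the 16 samples was most like the sum of the 8 genes were found by Pearson's r of log2 RPM (reads per 1000000 reads) among 5546 genes. With all reads they were Psma6 (r = 0.921), Znhit6 (0.915) and Etf1 (0.886), where the sum was led by the Supt5 window. Without the window they were Kif5b (0.971), Blmh (0.966) and Gspt1 (0.958), against a median of 0.558 over the genes. The points share their assay, their depth and, in part, their experiment, and r is given as a description.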

How the data were processed

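The authors trimmed reads with cutadapt, aligned them to mm10 with Bowtie2 and removed duplicates with UMI-tools, with versions not given in the sources used here. The deposited lists hold 1 line per read and, as their only value, a score, the mapping quality of the aligner, which was used to filter reads in an alternative. They hold no counts, so reads were counted here.

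The 3′ end of the RNA, on the strand opposite to the entry, was placed on RefSeq genes of GRCm38. Molecules found in more than 1 library, of any assay or batch, were dropped (28.9% of scGRO–seq, 16.8% of inAGTuC and 0.330% of AGTuC reads). The scGRO–seq list Exp261_c16, which nearly repeats an inAGTuC library, was not counted as another library here. Barcodes counted as cells from 1000 UMIs and 750 genes on, and a library entered only if it had 24 of them, which left 11621648 reads. Barcode doublets were not searched for. Body levels (at least 50 body reads over the 16 samples) and promoter to body ratios (at least 10 promoter reads as well) were fitted with limma voom 3.58.1 in R 4.3.3, with Benjamini-Hochberg adjustment over all genes tested, and an adjusted p below 0.05 was a call. Expected numbers of cells were hypergeometric, within library. Counts, expectations and exact tests used Python 3.11.15, numpy 2.4.6, scipy 1.17.1 and pandas 2.3.3. Both procedures were tested on simulated data. Intervals and limits of 0 counts (3 counts) cover counting error only.

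The 8 genes and the lists were chosen with earlier results of these data known. All 8 are named, with up to 10 list genes per test by smallest adjusted p and the 3 most alike genes. The 23 scGRO–seq libraries of other batches entered no comparison. Alternatives covered scaling, filters, windows, mapping quality, read length, cell thresholds, permutation within batch, a random block for the experiment and leaving out each sample. Those on the Supt5 window and on read length were chosen after seeing the data.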

Additional observations from a re-analysis of the deposited data

Results flagged for a closer look

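Of 45 groups of 4 to 10 samples examined, 7 held a sample far from the others by Dixon's criterion. For normally distributed values chance gives about 1 in 20. That rate need not hold here, where several groups rest on few reads and equal values, so no excess can be read from the count. Supt5 accounted for 2 of them, both in batch Exp260b, with a body level of 56.9 RPKM and a read in 94.3% of cells. Without the 50 bp window Exp260b had the lowest Supt5 body level of the 10 batches, 0.998 RPKM.

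The remaining values apart rested on few reads. Cdk9 had a body level of 5.97 RPKM in batch Exp156 (8 body reads) and a promoter share of 10.0% in inAGTuC library Exp261_c16 (1 promoter read), where the other 3 libraries had 0. Hexim1 had 3.48 RPKM in Exp260 (3 body reads). The promoter share of Supt6 was 3.19% in Exp264a, and that of Ccnt1 was 21.9% in inAGTuC library Exp234_c11 (7 promoter reads).

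The libraries of other batches, which entered no comparison, also held reads in the Supt5 window. Batch Exp263b had 68.9 RPM there (68 of its 73 Supt5 reads), Exp256 had 51.1 (20 of 20 reads) and Exp261 had 2.36 (5 of 92 reads), against at most 1.60 in an inAGTuC library. Of the Exp261 reads, 2 of these 5 belong to the list Exp261_c16, which repeats an inAGTuC library, and without it Exp261 had 4.50 RPM (3 of 23 reads). Exp234 had 13.2 RPM from 1 of 3 reads, and the remaining 7 batches had 0.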

How the results depend on the processing

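Each test was repeated under the alternatives. Leaving out each sample in turn gave 0 to 0 genes called between scGRO–seq and inAGTuC in body level, 0 to 3 between AGTuC and inAGTuC, 0 to 4 and 3 to 7 in the promoter to body ratio of AGTuC against inAGTuC and scGRO–seq, and 0 to 0 for cells with at least 1 and with 2 or more reads. The ratio of cells with reads of 2 of the genes lay between 0.953 and 0.987. The body level calls of AGTuC fell from 3 to 1 with limma-trend, which lost Cdk9 (limma adjusted p = 0.0789) and Hexim1 (0.103), and to 1 with the experiment as a random block, which lost Polr2a (0.0673) and Hexim1 (0.0585). An exact permutation test of the promoter share called 0 of the 8 genes and 0 of all 10823 against inAGTuC, where the smallest p it can give is 0.0667 (limma voom calls 3 of the 8). Against scGRO–seq it called the 7 genes tested, each at the smallest p it can give there (exact permutation p = 0.0152). It called 5806 of all 8294 genes (70.0%) in that comparison. Hexim1 was not tested against scGRO–seq, because some batches had no promoter or body read of it. Of the other results with a test, Hexim1 in body level was lost with all deposited reads (1.50, limma adjusted p = 0.0595), the Supt6 ratio against inAGTuC with 500 bp on either side of the start (2.04, 0.0710) and the Cdk9 ratio against scGRO–seq with a mapping quality of at least 10 (2.09, 0.0526). Gained were the Aff4 ratio against inAGTuC with all deposited reads (1.97, 0.0496) and the Ccnt1 ratio against scGRO–seq with every curated start (1.85, 0.0469). The causes were not tested.

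No call changed direction. Uncalled body differences that turned were, for scGRO–seq minus inAGTuC, Cdk9 and Ccnt1 with median-of-ratios scaling (0.14 and 0.026) and with reads of a cell within 50 bp counted once (0.17 and 0.088). Cdk9 turned with a mapping quality of at least 10 (0.037), the whole span (0.056) and libraries in place of batches (0.081). Ell2 turned without a minimum of genes (-0.11), and Ccnt1 (0.036) and Ell2 (-0.24) with the random block. Reads of at least 20 bp gave Cdk9 0.28, Ccnt1 0.16 and Aff4 0.033, and Exp208 alone gave Ccnt1 0.17 and Ell2 -0.81. For AGTuC minus inAGTuC, Supt6 turned with median-of-ratios scaling (-0.33), all deposited reads (-0.40) and reads of at least 20 bp (-0.040), and Ell2 with the whole span (0.092). Leaving out 1 sample, the scGRO–seq minus inAGTuC difference ran from -0.23 to 0.15 for Cdk9, -0.58 to 0.12 for Ccnt1, -0.58 to 0.052 for Aff4, -0.077 to 0.46 for Supt6 and -0.26 to 0.50 for Ell2. The AGTuC minus inAGTuC difference ran from -0.61 to 0.020 for Aff4, -0.25 to 0.28 for Supt6 and -0.59 to 0.16 for Ell2.

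Ratios of observed to expected cells near 1 also changed side. For at least 1 read, permutation within batch gave Polr2a 1.03, Ccnt1 0.996, Aff4 1.01 and Ell2 1.01, all deposited reads gave Ccnt1 0.997, a mapping quality of at least 10 gave Ell2 1.01, the body alone gave Ccnt1 0.999 and Hexim1 1.01, and reads of at least 20 bp gave Aff4 1.004. For 2 or more reads, permutation within batch gave Polr2a 0.968, and all deposited reads gave Ccnt1 0.982, Supt6 0.992 and Ell2 0.997. A mapping quality of at least 10 gave Ccnt1 0.948 and Ell2 0.980, and the body alone gave Hexim1 0. Supt5 gave 1.15 without the window and 1.17 with reads of at least 20 bp. Pairs of reads 50 bp apart gave Polr2a 0.927, Ccnt1 0.729, Aff4 0.916 and Ell2 0.954. Leaving out 1 batch, the ratio for at least 1 read ran from 0.968 to 1.004 for Polr2a, 0.995 to 1.01 for Ccnt1, 0.982 to 1.001 for Ell2 and 0.965 to 1.01 for Hexim1. For 2 or more reads it ran from 0.997 to 1.17 for Polr2a, 0.918 to 1.10 for Ccnt1 and 0.958 to 1.003 for Supt5 with its window. For Ell2 it ran from 0.990 to 1.16 and for Hexim1 from 0 to 7.15.

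No paired analysis was possible because replicate numbers were given in accession order only and pair no samples. The experiment, which joins both assays in Exp208, entered as the random block above. Depth limits Hexim1 and Cdk9 most, with 29 and 101 body reads in scGRO–seq.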

Other observations

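The 23 scGRO–seq libraries of other batches gave 0 to 133 span reads of Polr2a, 0 to 13 of Cdk9, 0 to 117 of Ccnt1, 2 to 262 of Aff4, 0 to 154 of Supt6, 0 to 182 of Ell2 and 0 to 9 of Hexim1 in a batch. The highest value of each gene was that of Exp261, which had 2122679 of the reads and includes the list that nearly repeats an inAGTuC library.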
